A study of Sus scrofa with 36 samples.

Results

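Of 10 genes that mark liver macrophages and lymphocytes, 9 had probes on the pig array used here: CD68, CD163, CD14, CSF1R, LYZ, CD3E, CD4, CD8A and PTPRC. The genes were taken by name, through the gene name, the transcript accession or the description that the scanner files give for a probe. The files named 34 probes for them, of 27 distinct sequences, and all 34 were well above background on at least 6 of the 36 arrays, so that none was lost to the filter. No probe carried the name of MARCO, which is not analysed here. The 9 genes and 34 probes stood among 10516 named genes and 44796 probes that passed the same filter. Where a gene had several probes, its brightest kept probe represents it, and probes are numbered from the brightest.

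RNA came from unsorted tissue of the left liver lobe of 36 castrated male growing pigs, 12 of each of 3 genetic types: Large White (LW), Creole (CR) and their F1 cross. In each type, 6 pigs were killed at thermoneutrality (TN, 24 °C) and 6 at the end of a heat stress (HS) of at most 5 days. The labels put HS at 30 °C and the growth protocol at 32 °C. The HS pigs were killed after the TN pigs, so that heat, slaughter day and a few days of age cannot be told apart. By the study's methods, each type was made up of sets of littermates that were split between pens, and whole pens went to TN or HS. Litters, parents, pens and ages of single animals were not used here, so the tests treat related pigs as independent and their standard errors and p-values may be too small. Levels are log2 values of the spot's median fluorescence, quantile normalised between arrays (log2 signal), and a difference of 1 on this scale is a doubling.

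Kupffer cells, the resident macrophages of the liver sinusoids, clear bacteria, worn red cells and haemoglobin from portal blood. They carry CD163, the receptor for haptoglobin-haemoglobin complexes, and CSF1R, the receptor for the growth factors that keep macrophages alive. T cells of the liver are recognised by CD3E, a chain of the T cell receptor complex, and by the co-receptors CD4 and CD8A. In a whole-tissue sample, fewer cells of a type and less RNA per cell cannot be told apart.

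Median probe signal was between 70.0 and 92.0 intensity units per array, over a background of 18.0 to 25.0, and 39644 to 44025 spots per array were well above background. LW arrays had a mean of 41522 ± 1268 such spots (SD, n = 12), CR arrays 42187 ± 937 (SD, n = 12) and F1 arrays 41776 ± 932 (SD, n = 12). All 10 measured hepatocyte markers were well above background on every array, as were the 14 measured macrophage markers other than the genes above. The first principal component of all kept probes held 18.6% of the variance. On it LW pigs ran from -44.2 to -3.0, CR pigs from 2.3 to 35.4 and F1 pigs from -21.3 to 36.9. LW TN replicates 1 and 6 (-4.8 and -3.0) lay towards CR. F1 TN replicate 3 and F1 HS replicates 1 and 2 (-18.1, -17.0 and -21.3) lay towards LW. F1 pigs at the CR end, such as F1 HS replicates 3 and 4 (33.5 and 36.9), were not picked. The F1 pick was therefore one-sided. The 5 picked animals are called below those that stood apart. Their CSF1R levels moved the same way, at 7.06 and 7.22 in the LW pair and 7.49, 7.46 and 7.57 in the F1 animals.

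The breed comparison gave the widest differences among these genes. Of the 9 genes, 6 were lower in CR than in LW livers and none was higher (limma, adjusted p below 0.05): CD163, LYZ, CSF1R, CD3E, CD4 and CD8A. Across all named genes, 14.2% were called lower in CR and 25.9% in either direction. The median difference of the 9 genes was -0.47, against -0.01 over all genes. Probe by probe, 25 of the 34 were called, all lower in CR, where 26.5% of all kept probes were called in either direction. CD68, CD14 and PTPRC were not called at their brightest probe. In F1 livers 5 of the 9 genes were lower than in LW, against 10.1% of all genes (17.3% in either direction), and CD3E was the gene called in CR but not in F1, although its F1 minus CR difference was not called either. Without the 5 animals that stood apart, 6 genes were called in CR and 6, CD3E among them, in F1. These animals were picked from these same signals as lying towards another type. Leaving them out tends to widen F1 minus LW, so this count is no independent check. The CR and F1 comparisons use the same LW animals, so they are not independent. At probe level 21 of 34 were called lower in F1, where 18.4% of all probes were called.

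**Figure D1:**
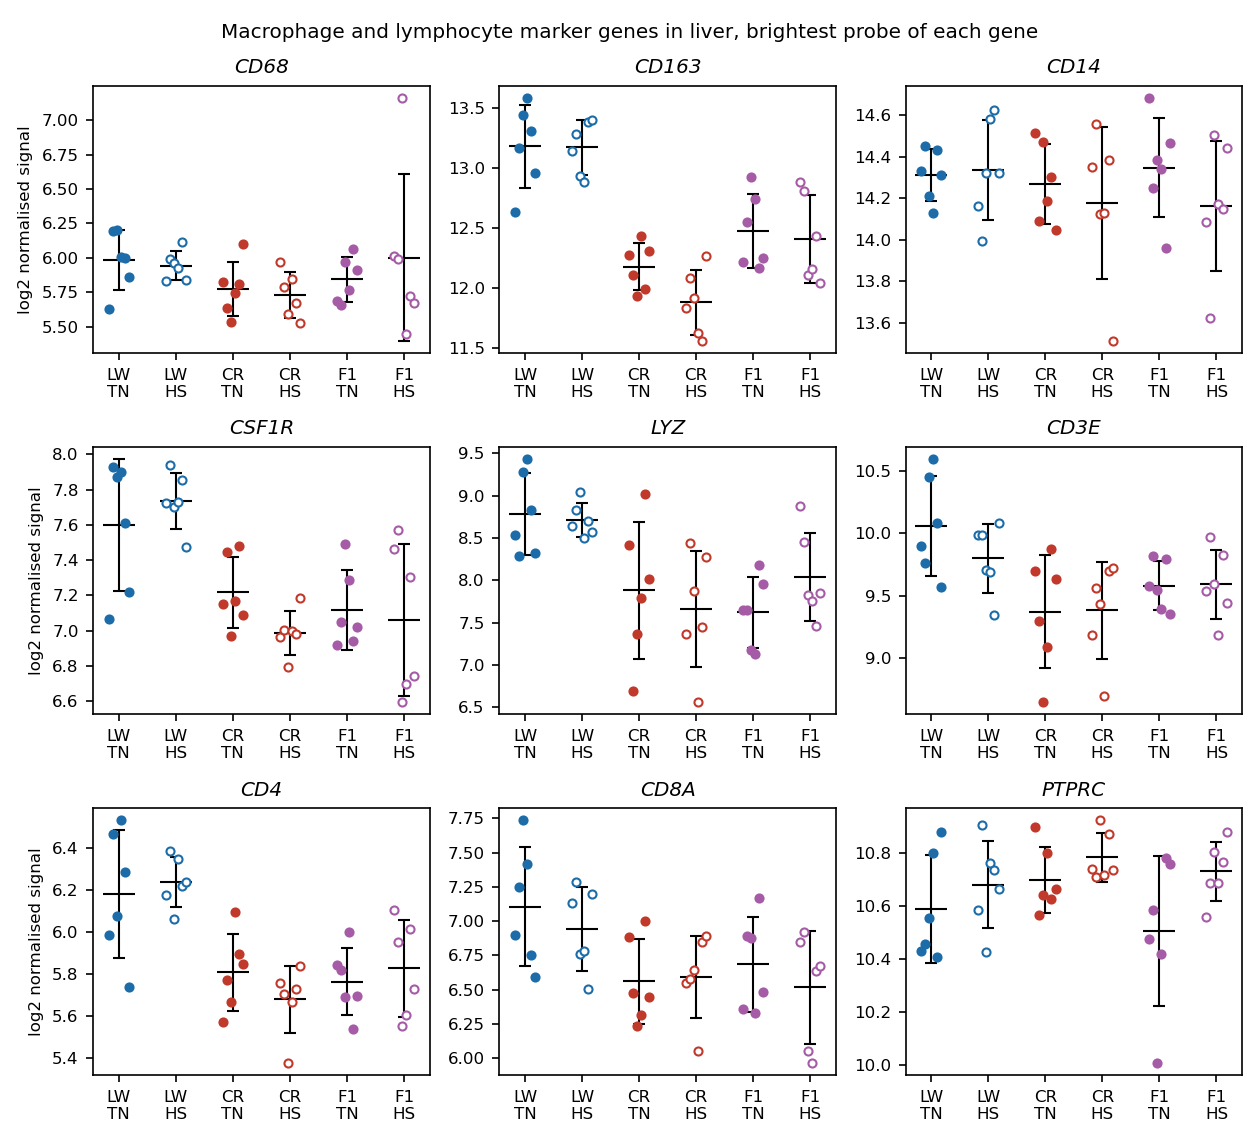
Log2 normalised signal of the brightest probe of each gene (y axis) in the 6 groups (x axis), with 1 point per pig, filled for TN and open for HS, and bars for mean ± SD of 6 pigs. The CD163 points of all 12 CR pigs lie below those of all 12 LW pigs, and no gene shows separate TN and HS points.

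CD163 had the largest fall in CR at the brightest probes. At its brightest probe LW pigs lay between 12.63 and 13.58 with a median of 13.22, CR pigs between 11.56 and 12.44 with a median of 12.04, and F1 pigs between 12.04 and 12.92 with a median of 12.34. All 12 CR pigs were below every LW pig, and F1 overlapped with both, 8 of 12 lying below every LW pig. CR minus LW was -1.15 ± 0.11 (SE, adjusted p = 1.86e-08 by limma), a 2.21-fold lower signal in CR, and F1 minus LW was -0.73 ± 0.11 (adjusted p = 0.000138). F1 minus CR was 0.41 (adjusted p = 0.0576) there. The size of this difference moved with single slides and animals: it was 0.28 without slide 4 (adjusted p = 0.425, limma), 0.25 without the 5 animals that stood apart (adjusted p = 0.153) and 0.53 without slide 5 (adjusted p = 0.0312). It also passed at the brightest probe without LW TN replicate 1, F1 TN replicate 1, CR TN replicate 4, F1 TN replicate 5, F1 HS replicate 6 or CR HS replicate 6, each left out alone. It passed at 3 other CD163 probes, with differences of 0.52, 0.85 and 0.84. The values of 0.85 and 0.84 came from probes 5 and 6, which share a sequence.

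CD163 was also the gene with the most probes, 10 in all, and their sizes of difference were not alike. The 7 probes named by accession or symbol were all lower in CR, from -0.71 at probe 8 to -1.90 at probe 5. Probes 5 and 6 carry the same sequence and gave -1.90 and -1.89, so the value was repeatable between spots of an array. The sequences below are those of the smallest, a middle and the largest of these differences, shown so that the stretch of transcript each reads can be compared, with no base marked.
CD163 probe 8: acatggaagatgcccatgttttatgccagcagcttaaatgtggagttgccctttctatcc
CD163 probe 3: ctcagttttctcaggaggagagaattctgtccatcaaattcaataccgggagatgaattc
CD163 probe 6: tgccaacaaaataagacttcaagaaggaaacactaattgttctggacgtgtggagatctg
The files place their starts at bases 1819, 3209 and 2756 of the transcript. At probe 6 LW pigs lay between 8.01 and 9.74 (median 9.40), CR pigs between 6.48 and 8.06 (median 7.15) and F1 pigs between 7.36 and 9.04 (median 7.92). Of the CR pigs, 11 of 12 were below every LW pig. At probe 8 the ranges were 7.20 to 8.26 in LW, 6.74 to 7.29 in CR and 6.78 to 7.83 in F1, and 7 of 12 CR pigs were below every LW pig. Whether the probes differ in their fall was not tested.

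The other 3 CD163 probes were named only through a description, as partial matches to the CD163 protein, and behaved differently. Probes 7 and 10 gave CR minus LW values of -0.04 and -0.01 and were not called, and probe 9 gave -0.41 (adjusted p = 0.00133, limma). Across the 36 pigs, after removal of the 6 group means, the 7 probes named by accession or symbol correlated at r = 0.65 to 0.97 in all 21 pairs. Among these 7, probes 1 and 2 share a sequence, as do probes 5 and 6. Between those 7 and the description-named 3, r was -0.21 to 0.32 and none of 21 pairs passed a permutation test adjusted over the 76 pairs of same-gene probes. Whether the 3 probes read CD163 itself was not tested.

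CSF1R was read by 1 probe. LW pigs lay between 7.06 and 7.94 (median 7.72), CR pigs between 6.79 and 7.48 (median 7.05) and F1 pigs between 6.60 and 7.57 (median 7.03). The groups overlapped, but all 12 CR and all 12 F1 pigs were below the LW mean. The difference was -0.56 ± 0.11 for CR minus LW (adjusted p = 0.000299, limma) and -0.58 ± 0.11 for F1 minus LW (adjusted p = 0.000912). The lowest LW values, 7.06 and 7.22, belonged to the LW pair that stood apart on the principal component. Without the 5 animals that stood apart, an alternative chosen after seeing the data from these same signals, F1 minus LW was -0.85 and CR minus LW -0.69.

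LYZ encodes lysozyme, the bacterial cell wall enzyme of macrophages and granulocytes. Its brightest probe lay between 8.29 and 9.43 in LW (median 8.67), between 6.56 and 9.02 in CR (median 7.84) and between 7.13 and 8.87 in F1 (median 7.80). CR had the widest spread, with an SD of 0.72 against 0.36 in LW, and 9 of 12 CR pigs and 10 of 12 F1 pigs were below every LW pig. In CR LYZ differed from LW by -0.98 ± 0.22 (adjusted p = 0.00105, limma), a 1.97-fold lower signal, and F1 minus LW was -0.92 ± 0.22 (adjusted p = 0.00408). All 5 LYZ probes were called in both comparisons, with differences of -0.86 to -0.98 and of -0.75 to -0.92. The 5 probes correlated at r = 0.87 to 0.98 across pigs, with the highest value between probes 1 and 2, which share a sequence. Without slide 3, which carried 8 of the arrays, F1 minus LW at the brightest probe was -0.78 (adjusted p = 0.0849).

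CD14 is the receptor that hands bacterial lipopolysaccharide to TLR4 and is made by monocytes, macrophages and hepatocytes. Its 3 probes read separate stretches, printed here because they were not called alike.
CD14 probe 1: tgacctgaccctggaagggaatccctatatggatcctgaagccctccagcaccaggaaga
CD14 probe 2: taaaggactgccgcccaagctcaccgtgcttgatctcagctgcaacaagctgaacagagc
CD14 probe 3: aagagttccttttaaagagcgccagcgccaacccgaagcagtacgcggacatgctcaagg
At probe 1 LW pigs lay between 14.00 and 14.63 (median 14.32), CR pigs between 13.51 and 14.56 (median 14.25) and F1 pigs between 13.62 and 14.68 (median 14.30). The groups overlapped almost fully, with a CR minus LW value of -0.10 and a 95% interval of -0.31 to 0.10. At probe 3 the difference was -0.29 ± 0.10 (adjusted p = 0.0277, limma), with 5 of 12 CR pigs below every LW pig. Probes 1 and 2 correlated at r = 0.96 across pigs, and probe 3 correlated with them at 0.71 and 0.69.

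CD68, a lysosomal glycoprotein of phagocytes, was read by 1 dim probe. LW pigs lay between 5.63 and 6.20 (median 5.98), CR pigs between 5.53 and 6.10 (median 5.77) and F1 pigs between 5.45 and 7.16 (median 5.84). Within this overlap 10 of 12 CR pigs were below the LW mean. The CR minus LW value was -0.21 with a 95% interval of -0.44 to 0.02 (adjusted p = 0.176, limma). The value of 7.16 came from F1 HS replicate 3 alone, and without that animal the CR minus LW difference of -0.21 passed the test (adjusted p = 0.0292).

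Among the T cell genes, CD3E lay between 9.34 and 10.60 in LW (median 9.94), between 8.65 and 9.88 in CR (median 9.50) and between 9.19 and 9.97 in F1 (median 9.56). All 12 CR pigs and 11 of 12 F1 pigs were below the LW mean, although 5 CR pigs and 1 F1 pig were below every LW pig. For CD3E the CR minus LW difference was -0.55 ± 0.13 (adjusted p = 0.00236, limma) and F1 minus LW -0.34 ± 0.13 (adjusted p = 0.0673). The F1 difference passed with slide as a block (-0.38, adjusted p = 0.0441, limma), with array weights (-0.36, adjusted p = 0.0462), as the mean of the 3 probes (-0.34, adjusted p = 0.0254) and without the 5 animals that stood apart (-0.44, adjusted p = 0.0274). Those 5 animals were picked from these same signals, so that last pass is no independent check. The F1 difference also passed without F1 HS replicate 2, CR TN replicate 3, LW HS replicate 5 or LW TN replicate 6, each left out alone. All 3 CD3E probes were called lower in CR, and probe 3 was also called in F1 (-0.38, adjusted p = 0.00837). Without slide 3, the CR minus LW value at probe 1 was -0.38 (adjusted p = 0.0674).

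CD8A, the co-receptor of cytotoxic T cells that some natural killer cells also carry, lay between 6.51 and 7.74 in LW (median 7.02), between 6.05 and 7.00 in CR (median 6.56) and between 5.97 and 7.17 in F1 (median 6.65). The groups overlapped, with 5 of 12 pigs below every LW pig in CR and 5 of 12 in F1. CD8A differed by -0.45 ± 0.14 in CR minus LW (adjusted p = 0.0131, limma) and F1 minus LW was -0.43 ± 0.14 (adjusted p = 0.0268). All 4 CD8A probes were called lower in CR and 3 of 4 in F1. Probes 1 to 3 share a sequence, so they count as repeats of a single reading. Probe 4 was dim, at a mean of 5.42, and above background on 24 of 36 arrays. The CD8A calls at probe 1 were those nearest to the threshold. Leaving out slide 2 gave -0.39 for CR (adjusted p = 0.059, limma) and -0.29 for F1 (adjusted p = 0.205). Leaving out slide 3 gave -0.34 for both (adjusted p = 0.151 and 0.177). The F1 call was also lost in the authors' value table (-0.34, adjusted p = 0.0576), and without LW TN replicate 3, F1 TN replicate 1, F1 HS replicate 3 or F1 HS replicate 4, each left out alone.

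CD4, the co-receptor of helper T cells that some monocytes and macrophages also carry, was dim. Of its 4 probes, 3 (probes 1 to 3) share 1 sequence, so they count as repeats of a single reading. At probe 1 LW pigs lay between 5.74 and 6.54 (median 6.23), CR pigs between 5.38 and 6.09 (median 5.74) and F1 pigs between 5.54 and 6.11 (median 5.77). All 12 CR and all 12 F1 pigs were below the LW mean, and 6 of each were below every LW pig. CR minus LW was -0.47 ± 0.08 (adjusted p = 7.55e-05, limma), and -0.41 and -0.47 at the 2 repeats. F1 minus LW was -0.42 ± 0.08 (adjusted p = 0.0011). The size of the CD4 difference moved with the processing, and both calls held: with the scanner's processed signal it was -0.92 in CR and -0.74 in F1, and with normexp background correction -0.34 and -0.28. The repeats differed from each other by an SD of 0.21 to 0.31 between arrays, against the group difference of -0.47, and within groups they correlated at only r = 0.20 to 0.37. The remaining CD4 probe was above background on 13 of 36 arrays and was not called.

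PTPRC encodes CD45, the phosphatase on the surface of all white blood cells. Its 3 probes did not follow each other. Probe 1, the brightest, holds a run of 24 bases of TG repeat, and correlated with probes 2 and 3 at r = 0.01 and 0.18, whereas probes 2 and 3 correlated with each other at 0.72. The latter pair is printed as the readings of PTPRC without that repeat.
PTPRC probe 2: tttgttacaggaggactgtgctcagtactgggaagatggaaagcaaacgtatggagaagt
PTPRC probe 3: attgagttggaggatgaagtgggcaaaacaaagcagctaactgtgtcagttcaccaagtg
Probe 1 lay between 10.41 and 10.91 in LW, 10.57 and 10.92 in CR and 10.01 and 10.88 in F1. Probe 3 lay between 6.87 and 7.50 in LW, 6.74 and 7.37 in CR and 6.62 and 7.34 in F1. Neither separated the breeds. CR minus LW was 0.11 at probe 1 (95% interval -0.04 to 0.25), -0.04 at probe 2 (-0.22 to 0.15) and -0.09 at probe 3 (-0.24 to 0.06), and no PTPRC probe was called.

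**Figure D2:**
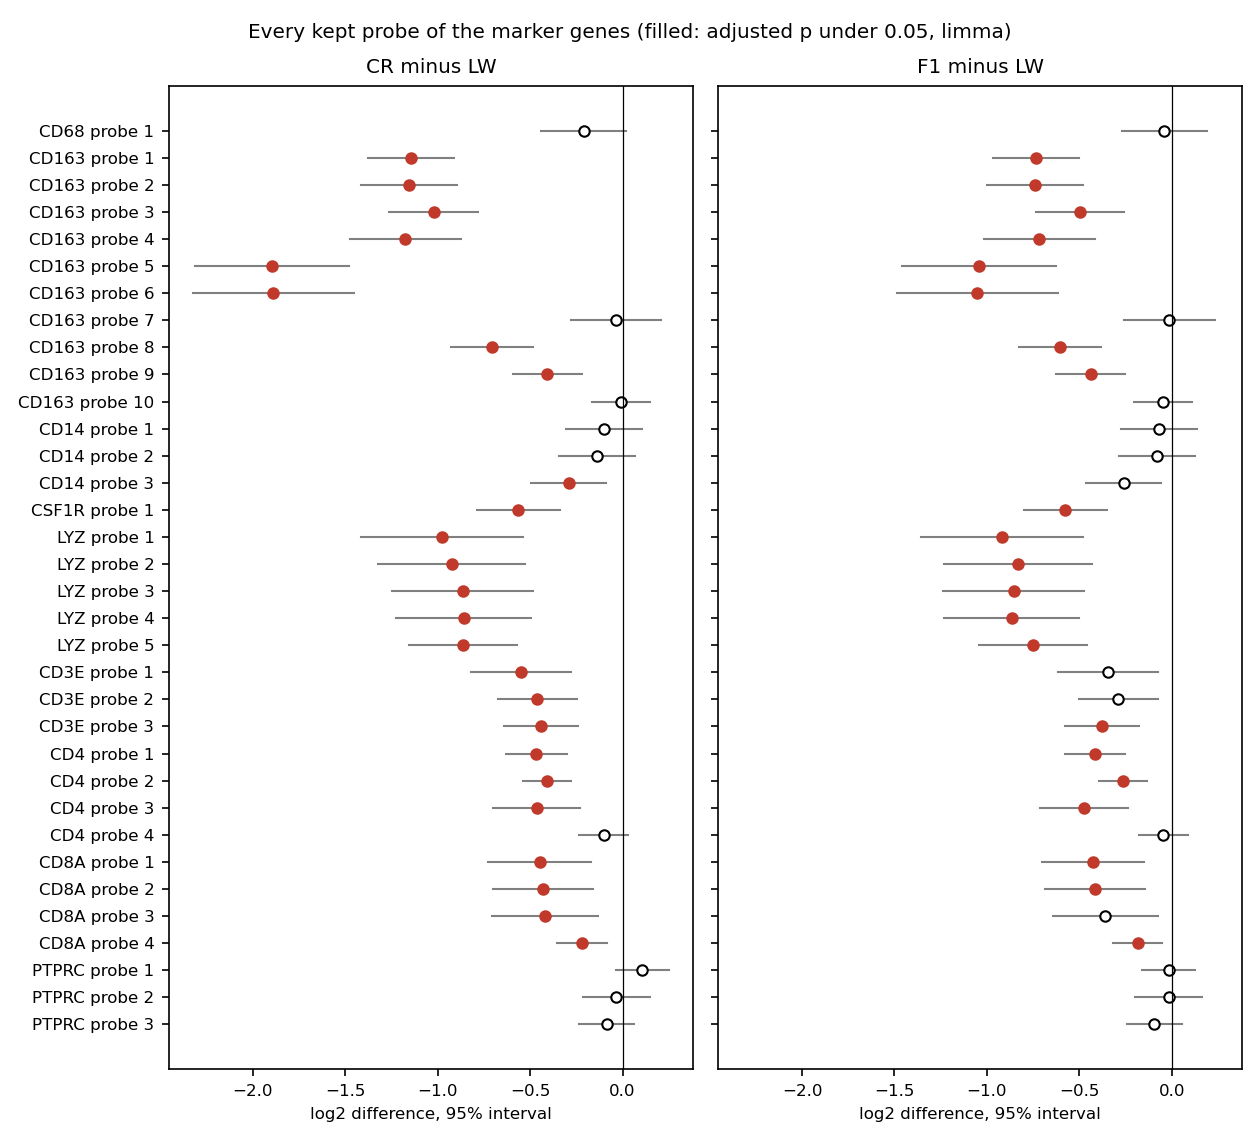
Difference of CR (left) and F1 (right) from LW in log2 units (x axis) for each of the 34 kept probes (y axis), with 95% intervals and filled points where the limma adjusted p was below 0.05. No called probe lies to the right of 0, and CD163 probes 5 and 6 lie farthest left.

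The 6 genes called in CR kept the same sign on every slide. Each of the 5 slides held pigs of all 3 types, and CR minus LW within a slide ran from -1.38 to -1.06 for CD163, -0.87 to -0.26 for CSF1R, -1.42 to -0.53 for LYZ, -1.04 to -0.14 for CD3E, -0.62 to -0.19 for CD4 and -0.79 to -0.15 for CD8A. For F1 minus LW, 4 of the 5 called genes were lower on all 5 slides, and LYZ on 4 of 5, with 0.46 on slide 1, which held 1 F1 pig and 2 LW pigs. CD163 in F1 was at -0.01 on that slide. PTPRC probe 1 was lower in CR on 1 of 5 slides and CD14 probe 1 on 3 of 5.

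F1 pigs were compared with CR and with the mean of LW and CR. None of the 9 genes was called between F1 and CR at its brightest probe (limma, 1 at an unadjusted p below 0.05, against 14% of all genes), where 1.77% of all genes were called. Among the 34 probes 3 were called, all of CD163 and all higher in F1, against 1.5% of all probes. Probes 5 and 6 among them share a sequence and repeat a single reading. Against the mid-parent mean none of the 34 probes was called, with 1.12% of all probes called and 10 of the 34 at an unadjusted p below 0.05, against 15.2% of all probes. Values at the brightest probes ran from -0.43 for LYZ to 0.06 for CD68, with CSF1R at -0.29 (adjusted p = 0.121). Without the 5 animals that stood apart, 4 genes passed this comparison. That choice, made after seeing these same signals, drops F1 pigs that lay towards LW and LW pigs that lay towards CR. It tends by itself to lower F1 and raise LW, so the 4 genes are no test of a departure from the mid-parent mean.

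Heat stress produced no called difference in any of the 34 probes, where 0.859% of all probes and 0.951% of all genes were called. At an unadjusted p below 0.05 there were 3 of the 34 probes (limma), against 13.1% of all probes: CD4 probe 4 at -0.16, PTPRC probe 1 at 0.13 and PTPRC probe 3 at -0.12. The last pair, both named PTPRC, pointed in opposite directions. Adjusted p values of these were 0.15, 0.291 and 0.375.

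Levels in TN and HS livers overlapped for every gene. CD163 lay between 11.94 and 13.58 in TN (median 12.49) and between 11.56 and 13.40 in HS (median 12.35), a difference of -0.12 with a 95% interval of -0.31 to 0.07. CD14 lay between 13.96 and 14.68 in TN (median 14.32) and between 13.51 and 14.63 in HS (median 14.25), a difference of -0.08 (-0.25 to 0.08). LYZ lay between 6.70 and 9.43 in TN (median 8.10) and between 6.56 and 9.04 in HS (median 8.36), a difference of 0.04 (-0.32 to 0.40). Over all 9 genes the 95% intervals lay between -0.32 and 0.40, which leaves room for changes of that size in either direction.

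Within single breeds, where 6 pigs stand against 6, no member probe was called either (limma). Of all probes, 0% were called within LW, 0% within CR, 0.00893% within F1 and 0% for the breed by temperature interaction. At an unadjusted p below 0.05 there were 1 member probe in LW, 0 in CR, 3 in F1 and 1 in the interaction, of 34 each, against 5.12%, 7.4%, 9.31% and 3.74% of all probes. The widest within-breed values at the brightest probes were 0.42 for LYZ in F1 (95% interval -0.20 to 1.03), -0.29 for CD163 in CR (-0.62 to 0.04) and -0.26 for CD3E in LW (-0.65 to 0.13). PTPRC probe 1 in F1 was at 0.23 (0.02 to 0.43, adjusted p = 0.479).

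**Figure D3:**
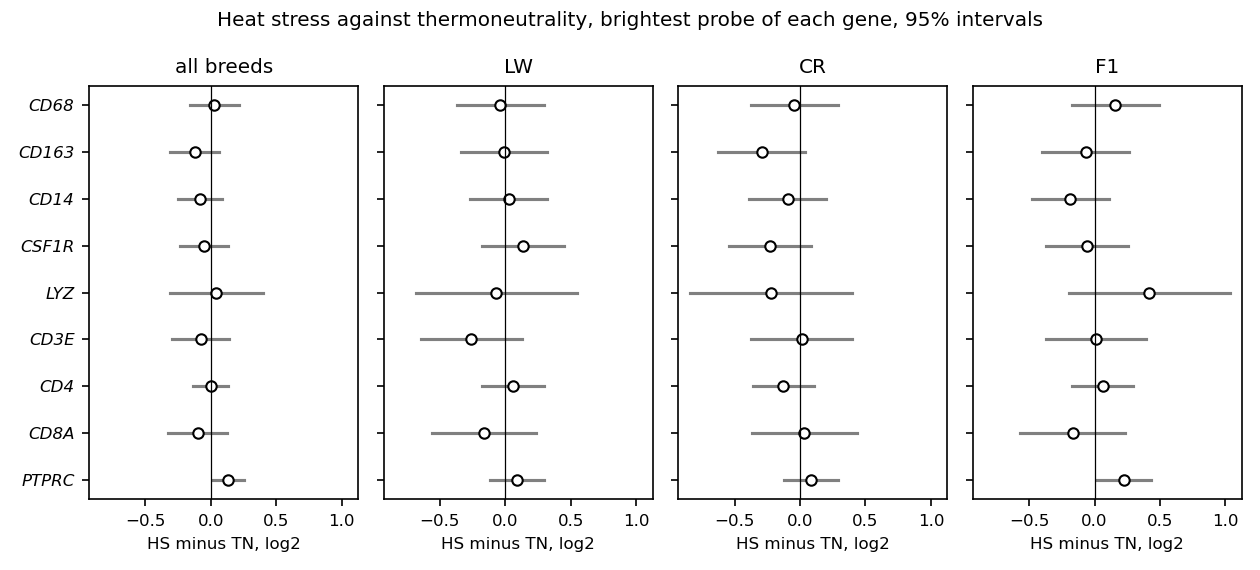
Difference of HS from TN in log2 units (x axis) with 95% intervals for the brightest probe of each gene (y axis), over all pigs and within LW, CR and F1. No point was called, and the intervals within a breed are wider than those over all 36 pigs, reaching 1.03 for LYZ in F1.

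The genes were also compared across pigs, after the mean of each of the 6 groups was removed. Of 36 pairs of brightest probes, 8 passed a two-sided permutation test (100000 shuffles of pigs within groups, Benjamini-Hochberg adjusted over the 36 pairs), 7 of them positive. The T cell genes CD3E and CD8A gave the highest value, r = 0.78 and rho = 0.77 over 36 pigs, each with a permutation p of 1e-05, the smallest possible, and an adjusted p of 0.00036. The macrophage genes CD163 and CSF1R followed at r = 0.69 and rho = 0.63 (permutation test, adjusted p = 0.0018 and 0.00612). The 5 animals that stood apart were kept in all these correlations. At both genes LW TN replicates 1 and 6 lay below their group mean (CD163 12.63 and 12.96 against 13.18). F1 TN replicate 3 and F1 HS replicates 1 and 2 lay above theirs (CSF1R 7.49 against 7.12, and 7.46 and 7.57 against 7.06). How much of r these animals carry was not tested.

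CD4 went with the macrophage genes, at r = 0.67 and rho = 0.64 with CSF1R (permutation test, adjusted p = 0.0072 and 0.00612) and r = 0.53 and rho = 0.49 with CD163 (adjusted p = 0.028 and 0.0437). With CD3E it was at r = 0.25 and rho = 0.20 (permutation test, adjusted p = 0.398 and 0.446), and with CD8A at r = 0.26. After removal of slide means as well, r rose to 0.45 with CD3E and 0.37 with CD8A, so the low values depended in part on slides. Whether these correlations differ from each other was not tested, and the low agreement between CD4 repeats bears on all of them. LYZ, conversely, went with the T cell genes, at r = 0.62 with CD3E and 0.55 with CD8A (rho = 0.62 and 0.58, permutation test, adjusted p = 0.0072 and 0.0077 for r and 0.00612 for both rho values). LYZ was at 0.32 with CD163 and 0.22 with CSF1R, which did not pass, and at 0.36 and 0.33 with slide means removed.

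The last pairs past the threshold by r were CSF1R with CD8A (r = 0.52, permutation test, adjusted p = 0.0392) and CD14 with CD8A (r = -0.44, adjusted p = 0.0463), and for both the rank correlation did not pass (rho = 0.48 and -0.44, adjusted p = 0.0571 and 0.0557). CD14 was below 0 with 7 of the other 8 genes. After removal of slide means as well, the 8 correlations were 0.80 for CD3E with CD8A, 0.71 for CD163 with CSF1R, 0.66 for CSF1R with CD4, 0.55 for CD163 with CD4, 0.63 for LYZ with CD3E, 0.53 for LYZ with CD8A, 0.67 for CSF1R with CD8A and -0.45 for CD14 with CD8A. Leaving out the 2 pigs farthest from the median of the first gene of each pair gave 0.76, 0.61, 0.66, 0.46, 0.63, 0.55, 0.49 and -0.37 in the same order. A shared array and its normalisation are common to both members of each pair.

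**Figure D4:**
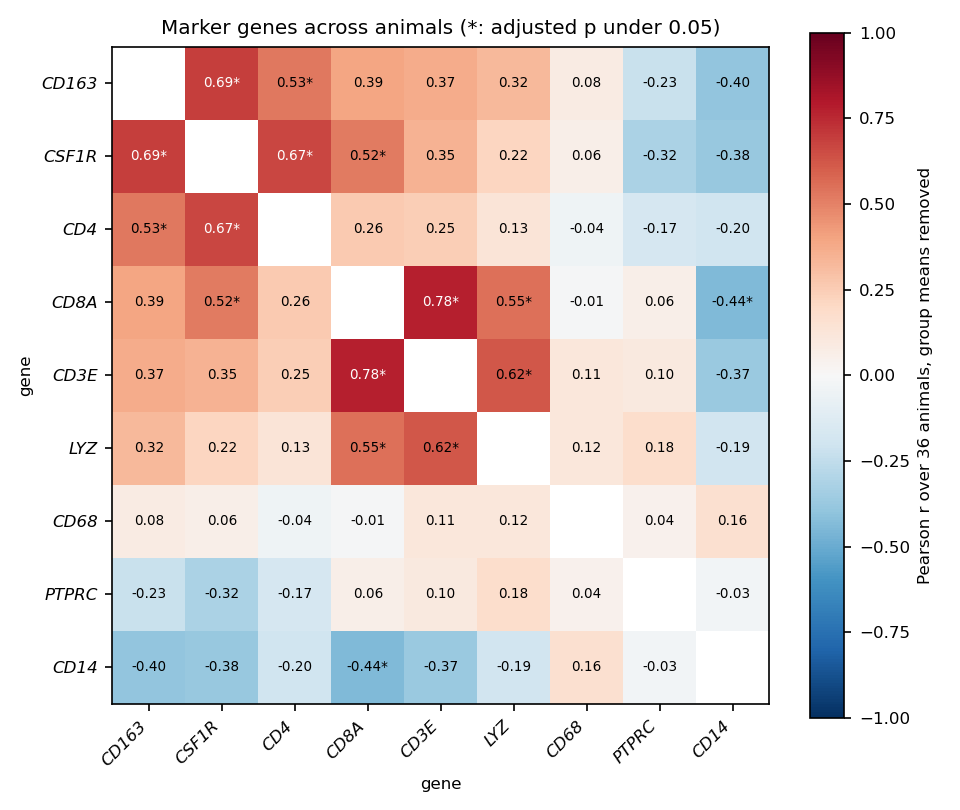
Pearson correlation of each pair of marker genes over 36 pigs with the 6 group means removed (both axes list genes, colour and number give r, asterisks mark adjusted p below 0.05 by permutation). The T cell pair CD3E and CD8A reaches 0.78, the macrophage pair CD163 and CSF1R 0.69, and the CD14 row is mostly negative.

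The genes of the whole array closest to each member were found by the same within-group correlation over 36 pigs, given here as a description. CSF1R lay closest to SIGLEC1 (r = 0.87), the sialic acid receptor of macrophages, ADORA3 (0.86) and NCF4 (0.85), a subunit of the phagocyte oxidase. CD163 lay close to NPL (0.79) and TLR4 (0.77). CD3E lay closest to TMEM71 (0.82), CD3D (0.81) and OLR1 (0.79), and CD8A to CD3G (0.83), RGS10 (0.82) and FAM129A (0.79). CD3D and CD3G are further chains of the T cell receptor complex.

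For LYZ the nearest genes were S100A4 (0.75), RAB37 (0.72) and RAC2 (0.71), a GTPase of blood cells, and for CD4 they were CSF1R (0.67), NUP43 (0.66) and DIRC2 (0.65). The nearest genes of the remaining members were RBM15 (0.81), NF1 (0.69) and ASB9 (0.67) for CD68, SDC2 (0.82), C2H19orf24 (0.77) and DNAJC12 (0.74) for CD14, and PRRT1 (0.83), NCSTN (0.82) and LUM (0.82) for PTPRC probe 1. At CD68, F1 HS replicate 3 lay at 7.16 against 6.02 in the next animal of its group. How much of the CD68 values this animal carries was not tested.

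Lists of further markers of the cell types in liver showed which other genes were lower in CR. Of 14 measured macrophage markers other than the members, 12 were lower in CR than in LW and none higher (limma), with a median difference of -0.56 against -0.01 over all genes and 14.2% of all genes called lower. C1QB fell by 0.97, C1QC by 0.96 and C1QA by 0.85, the 3 chains of the complement starter C1q that macrophages make. In F1, 9 of the 14 were lower than in LW, against 10.1% of all genes. The largest falls were those of C1QB at -0.76, C1QC at -0.70 and VSIG4, a complement receptor of Kupffer cells, at -0.66. Of 13 pan-leukocyte genes other than PTPRC, 9 were lower in CR and 8 in F1, led by CD53, a tetraspanin of white blood cells (-0.68 in CR and -0.51 in F1). VAV1 (-0.65) and CD48 (-0.55) came next in CR, and HCLS1 (-0.47) and ITGB2 (-0.45) in F1.

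T and natural killer cell markers were mixed. Of 16 measured besides the members, 9 were lower in CR and 2 higher, with a median of -0.37, and 5 were lower and 1 higher in F1. Over all genes, 14.2% were called lower in CR (25.9% in either direction) and 10.1% lower in F1 (17.3% in either direction). The largest falls in CR were in KLRK1, an activating receptor of natural killer and cytotoxic cells, by 0.87, CD3G by 0.77 and NKG7, a granule protein, by 0.65. In F1 KLRK1 was at -0.59, CD3G at -0.52 and CD3D at -0.45. CD5 was higher in both CR (0.33) and F1 (0.32), and LCK was higher in CR (0.21). These 2, which are also T cell genes, lie outside the naming rule and were chosen after their values were seen. Of 7 B and plasma cell markers none was called in CR or F1 (limma, 0 at an unadjusted p below 0.05 in either, against 37% and 30.8% of all genes), and the median CR minus LW value was 0.01. Of 6 granulocyte markers 5 were lower in both CR and F1, with S100A12 at -1.13 and -0.91, the neutrophil chemokine receptor CXCR2 at -0.91 and -0.78, and S100A8 at -0.84 and -0.76.

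The list of cytokines and receptors held 22 measured genes, of which 7 were lower in CR and 7 in F1, with a median of -0.11 in CR. Of all genes, 14.2% were lower in CR and 10.1% in F1. The 3 largest falls were those of TLR4, the lipopolysaccharide receptor, by 0.97 in CR and by 0.71 in F1, its partner LY96 by 0.89 and by 0.58, and LBP, the lipopolysaccharide binding protein of plasma, by 0.73 and by 0.55. The TLR4 adaptor MYD88, in the same list and named after its values were seen, was at -0.11 in CR and -0.12 in F1 and was not called. CD14 itself was at -0.10 and -0.07 at its brightest probe. The ligands IL34 (of CSF1R) and HP (haptoglobin, bound by CD163 once it holds haemoglobin), named after their values were seen, were at -0.11 and -0.04 in CR and not called.

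**Figure D5:**
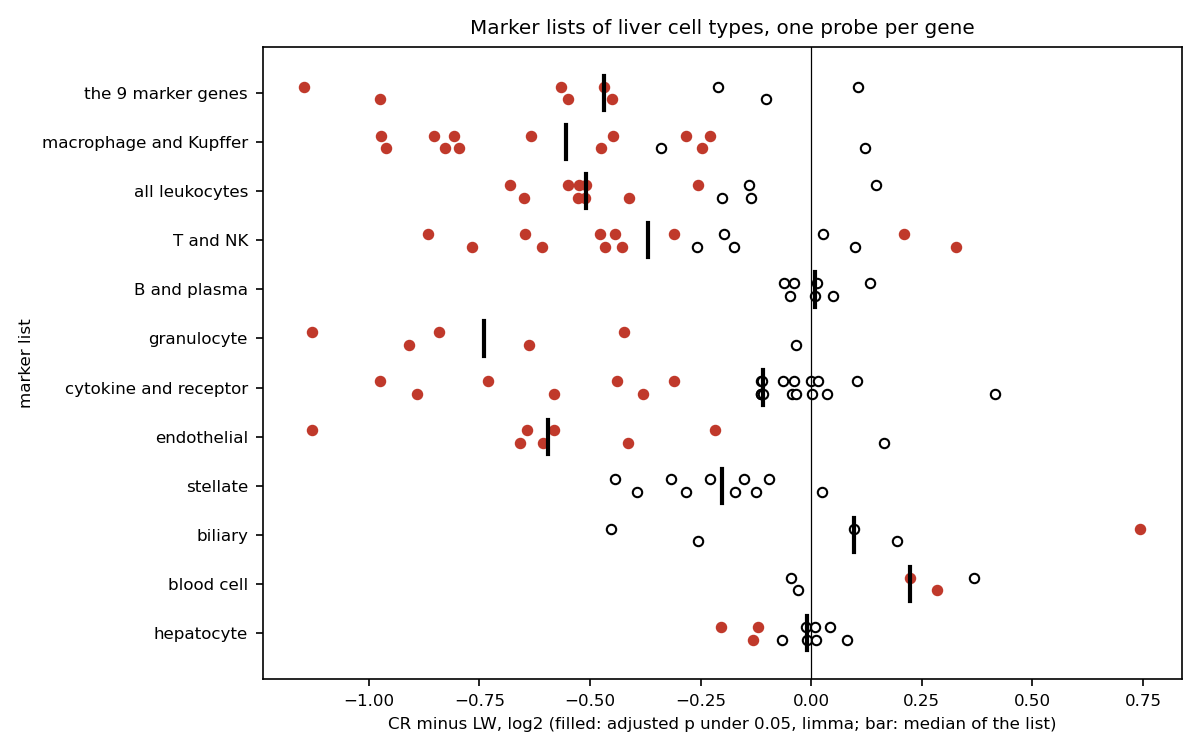
CR minus LW difference in log2 units (x axis) at the brightest probe of each gene in the marker lists (y axis), with filled points for limma adjusted p below 0.05 and a bar at each list's median. The macrophage, pan-leukocyte, granulocyte and endothelial medians lie between -0.51 and -0.74, and the hepatocyte and B cell medians close to 0.

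Endothelial markers moved with the same breeds. Of 8 measured, 7 were lower in CR and 5 in F1, with a median of -0.59 in CR. Of all genes, 14.2% were called lower in CR and 10.1% in F1. KDR, the main receptor for vascular endothelial growth factor, fell by 1.13 in CR, CDH5 by 0.66 and TEK by 0.64. In F1 TEK was at -0.74, CDH5 at -0.53 and LYVE1 at -0.38, and KDR was 0.76 higher in F1 than in CR, the only listed gene called between those types. The summed linear signal of the 8 genes ran from 26279 to 38866 units in LW, 19198 to 28951 in CR and 20633 to 37604 in F1, and 7 of the 8 were well above background on every array. For the 14 macrophage genes the same sum ran from 147409 to 174760 in LW, 108036 to 148629 in CR and 109471 to 168537 in F1. A single gene, CD5L, a macrophage protein that was not called (0.12 in CR, adjusted p = 0.26, limma), gave 51.7% of this sum in the median LW pig and 66.9% in the median CR pig. Without it the sum ran from 53619 to 88567 in LW, 34691 to 52675 in CR and 34022 to 73176 in F1. In the endothelial sum CLEC4G gave 76% in the median LW pig, and without it the sum ran from 5799 to 9331 in LW, 4579 to 6847 in CR and 4691 to 7447 in F1. The 10 hepatocyte markers gave 2363753 to 2605498 in LW, 2325438 to 2506947 in CR and 2376748 to 2521265 in F1. Several of them were very bright (LW means of 18.8 for ALB and 18.7 for APOA1). Quantile normalisation gives every array the same set of values, which holds a sum of such probes nearly equal. The hepatocyte sum therefore cannot show whether hepatocyte RNA was alike between types. Of the 10 hepatocyte markers, 3 were lower in CR by small amounts (FGB by 0.20, AMBP by 0.13 and APOA1 by 0.12), against 14.2% of all genes. Their median was -0.01 over all 10, and FGA was 0.26 higher in F1 than in LW. The part of tissue composition in the differences of the 9 genes was not tested.

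Between HS and TN, 0 genes of any of these 11 lists were called (limma), with 14 of 116 genes at an unadjusted p below 0.05, close to the 13.8% of all genes, and the list medians ran from -0.13 for granulocyte to 0.13 for biliary markers.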

How the data were processed

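Total RNA was hybridised to 1-colour Agilent arrays of 61625 spots. The authors deposited scanner tables (Agilent Feature Extraction 10.10.1.1) whose spot intensity values are linear and not normalised between arrays, and a quantile-normalised log2 table of 42051 probes that is centred probe by probe (every probe's median over the arrays lies between 7.52 and 7.85). Here the median signal was log2 transformed and quantile normalised over 60306 non-control spots, with 107 non-uniform spots set missing, and 44796 of 60305 probes were kept (above background by the scanner's flag on 6 or more of the 36 arrays). Names came from the files and RefSeq tables. The genome positions of probes were not analysed here.

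Breed and temperature were fitted over all arrays in limma 3.58.1 (R 4.3.3, two-sided, Benjamini-Hochberg over 44796 probes, threshold 0.05), and the 6 groups for within-breed and interaction tests. Father, mother, pen and slaughter day, random effects in the study's model, were not used here. The fit was tested on simulated data with independent pigs and a temperature shift only, so that test does not bear on the breed calls or on relatedness. The members, the lists (macrophage, pan-leukocyte, T and natural killer, B and plasma, granulocyte, cytokine, endothelial, stellate, biliary, blood cell, hepatocyte) and the naming rule were chosen with earlier results of these data known. The rule named all members, up to 3 called genes per list and comparison with the largest differences, and the 3 genes most correlated with each member. One gene that the rule named is not reported here. Alternatives covered signal, background correction, filters, slides, weights, spread, probe averaging and leaving out arrays or slides.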

Additional observations from a re-analysis of the deposited data

Results flagged for a closer look

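Each gene's brightest probe was checked in each of the 6 groups for an animal far from the other 5, by the gap to its neighbour as a share of the group's range. Of 54 such checks 2 passed Dixon's critical value for groups of 6, and chance flags about 1 in 20. CD68 in F1 HS replicate 3 was the highest of its group with a gap of 0.668 of the range, at 7.16 against 6.02 in the next animal, and the gene has no other probe. CD4 in CR HS replicate 3 was the lowest of its group with a gap of 0.629, at 5.38 against 5.67, and was not the lowest at any of the 3 other CD4 probes.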

How the results depend on the processing

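The 11 called differences of single genes between CR or F1 and LW kept their direction in all 561 alternative values and their call in 550. For each difference, 36 of the alternatives left out a single array, so they share nearly all animals with the main fit. Another left out the 5 animals picked from these same signals. The calls lost were those of CD8A in both comparisons, of CD3E in CR without slide 3 and of LYZ in F1 without slide 3. The number of genes called was 6 in CR minus LW (4 to 7 when an array or slide was left out, with 4 without slide 3) and 5 in F1 minus LW (3 to 6, with 3 without slide 3). For F1 minus CR it was 0, and 0 to 1 on leaving out an array or slide, the gene being CD163. Against the mid-parent mean it was 0, and 0 to 1 on leaving out an array or slide (1 without F1 HS replicate 2 and without slide 1), 1 with array weights and 4 without the 5 animals that stood apart. Those animals were picked from these same signals, and leaving them out tends to move F1 away from LW. No paired analysis was possible because the labels used here give no replicate numbers or litters, although littermates were spread over TN and HS.

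Signs turned only for values that were not called. For HS minus TN, on leaving out an array or slide, CD68 ran from -0.066 to 0.11, LYZ from -0.047 to 0.17, CD3E from -0.17 to 0.024 and CD4 from -0.064 to 0.076. Without the 5 animals CD68 was at -0.013 and LYZ at -0.16. LYZ was at -0.043 with array weights, CD4 at 0.0099 with normexp, and PTPRC at -0.028 as the mean of its probes. In CR minus LW, PTPRC was at -0.0051 as the mean of its probes. In F1 minus LW, CD68 ran from -0.16 to 0.039, CD14 from -0.11 to 0.0063 and PTPRC from -0.063 to 0.050 on leaving out an array or slide. CD68 was at 0.037 in the authors' table, PTPRC at 0.035 with array weights, and without the 5 animals CD14 was at 0.00057 and PTPRC at 0.073. The causes were not tested. The number of arrays limits the precision.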

Other observations

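Structural and blood cell markers of the liver were set against the 25.9% of all genes called in either direction in CR minus LW and the 17.3% in F1 minus LW. Of 10 stellate cell and matrix genes 0 were called between CR and LW (limma, 4 at an unadjusted p below 0.05, against 37% of all genes), with a median of -0.20 and 9 of 10 values below 0. Between F1 and LW, RGS5, a pericyte gene, was lower by 0.66 and the collagen gene COL1A2 by 0.50. Of 5 bile duct markers KRT7 was higher in CR, by 0.74, and the others were not called. Of 5 red cell and platelet genes the platelet genes ITGA2B (0.28) and GP9 (0.22) were higher in CR, and GP9 also in F1 (0.21). Whether these lists differ from the leukocyte lists was not tested.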
